A study of Homo sapiens with 4 samples.

Results

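The genes described here act on SR proteins or build the nuclear speckle: the kinase genes CLK1, CLK2, CLK3, CLK4, SRPK1, SRPK2 and PRPF4B, and the scaffold genes SON, SRRM1 and SRRM2. They were chosen by name, and all 10 of 10 were found among the 58735 genes of the deposited count tables. The samples were HCT116 cells, an established human colon cancer cell line, with RBM25 knocked down by a short hairpin RNA (RBM25 sh, 2 libraries) or with a control hairpin (Control sh, 2 libraries). Total RNA was sequenced from cells kept in McCoy's 5A medium with serum in both groups. The hairpin sequences, the time after knockdown and the source of each replicate are not stated in the labels. Nothing says that the libraries of a group came from separate cultures, so the p-values below reflect library-to-library spread that may be technical.

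SR proteins are splicing factors with a domain rich in arginine and serine dipeptides, and phosphorylation of that domain sets where they are in the cell and what they bind. SRPK1 and SRPK2 phosphorylate them mainly in the cytoplasm, which allows their import into the nucleus, and the CLK kinases phosphorylate them further in the nucleus, which releases them from speckles. Speckles are nuclear bodies that store and modify splicing factors, and SON and SRRM2 form their core. RBM25 is itself an RNA-binding protein of the splicing machinery that works with the U1 snRNP, which recognises 5' splice sites.

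The CLK kinases are also called LAMMER kinases after a motif in their kinase domain. The coding stretch of that motif is shown for the 4 genes because their likeness bears on how reads could be assigned to one paralog or another. Each is the strand of the transcript, read from GRCh38, with capitals at the bases that differ from CLK1. The stretches lie at chr2:200854648-200854680 (minus strand) for CLK1, chr1:155264253-155264285 (minus strand) for CLK2, chr15:74628619-74628651 (plus strand) for CLK3 and chr5:178605335-178605367 (minus strand) for CLK4.
CLK1: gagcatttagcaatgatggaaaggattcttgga
CLK2: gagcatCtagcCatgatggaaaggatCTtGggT
CLK3: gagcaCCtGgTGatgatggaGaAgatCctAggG
CLK4: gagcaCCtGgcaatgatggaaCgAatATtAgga
Over these 33 bases, CLK2 differed from CLK1 at 6, CLK4 at 8 and CLK3 at 10. The longest run that any CLK1 transcript shared with any CLK4 transcript was 49 bases, at chr2:200860347-200860395 (minus strand) in CLK1 and at chr5:178617565-178617613 (minus strand) in CLK4.
CLK1 and CLK4, shared: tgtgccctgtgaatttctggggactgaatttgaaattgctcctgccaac
The longest run shared by SRPK1 and SRPK2 was 23 bases, and that shared by SRRM1 and SRRM2 was 17 bases. Of all distinct windows of 100 bases in a gene's transcripts, the share also found in another gene's transcripts was 0% for CLK1, 0.683% for CLK4, 1.47% for SON and 1.01% for SRRM2. It was highest for CLK3 at 4.52% and for SRRM1 at 4.09%. No source used here gives the read length.

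Library totals were 15528274 and 16335555 counts in RBM25 sh and 15528869 and 16982663 counts in Control sh. RBM25, the targeted gene, stood at 44.0 and 35.7 CPM (counts scaled to library size, with TMM factors) in RBM25 sh, against 155.3 and 114.9 CPM in Control sh. Its log2 fold change was -1.76 ± 0.30 (SE), with an edgeR adjusted p of 0.0195 (0.119 without RBM25 sh replicate 1 and 0.202 without RBM25 sh replicate 2). With the GC correction described below it was -1.92 ± 0.13, and by limma on log2(FPKM + 1) the adjusted p was 0.0532. Of 9 epithelial and intestinal markers, KRT8, KRT18, KRT19, EPCAM, CDH1 and CDX2 were measured, CDX1 had no count, and VIL1 and LGR5 had at most 3 counts in a library. Their summed level was 4406 to 5516 CPM in RBM25 sh and 3404 to 4210 CPM in Control sh. None of the 6 was called, meaning an edgeR adjusted p under 0.05, without the GC correction. With it KRT8 alone was called, higher in RBM25 sh (log2 fold change 0.77 ± 0.18, edgeR adjusted p = 0.011). KRT8 stood at 2409 and 3153 CPM in RBM25 sh, against 1622 and 2091 CPM in Control sh. The part of these marker differences in the results was not tested. Of 9 markers of other cell types, COL1A1 and VWF alone passed the filter on low counts, and the list summed to 38.7 to 48.8 CPM in RBM25 sh and 41.2 to 63.9 CPM in Control sh. In bulk RNA, fewer cells with a transcript and less of it per cell cannot be told apart.

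Of the 10 genes, 6 had higher CPM in both RBM25 sh libraries than in either Control sh library: SON, SRRM1, SRRM2, PRPF4B, SRPK2 and CLK4. CLK1, CLK2, CLK3 and SRPK1 had groups that overlapped, and none of the 10 was lower without overlap. Among the 16091 genes tested, 23.9% were higher without overlap and 27.9% lower. None of the 10 passed the edgeR quasi-likelihood test at an adjusted p of 0.05, at which 0.653% of all genes were called higher, 2.4% lower and 3.05% in either direction, and SON alone had an unadjusted p under 0.05. By DESeq2 none of the 10 was called either, and SON and 1 other gene had an unadjusted p under 0.05. The median log2 fold change of the 10 genes was 0.44, beside -0.04 over all genes tested. It ranged from 0.13 to 0.72 over the 4 pairs of 1 RBM25 sh and 1 Control sh library, and was 0.26 without Control sh replicate 2. Without Control sh replicate 1, CLK4 and SON were called higher, in a fit that called 5.1% of genes higher. Scaling by library totals moved the median of all genes to -0.15 and that of the 10 genes to 0.33.

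**Figure D1:**
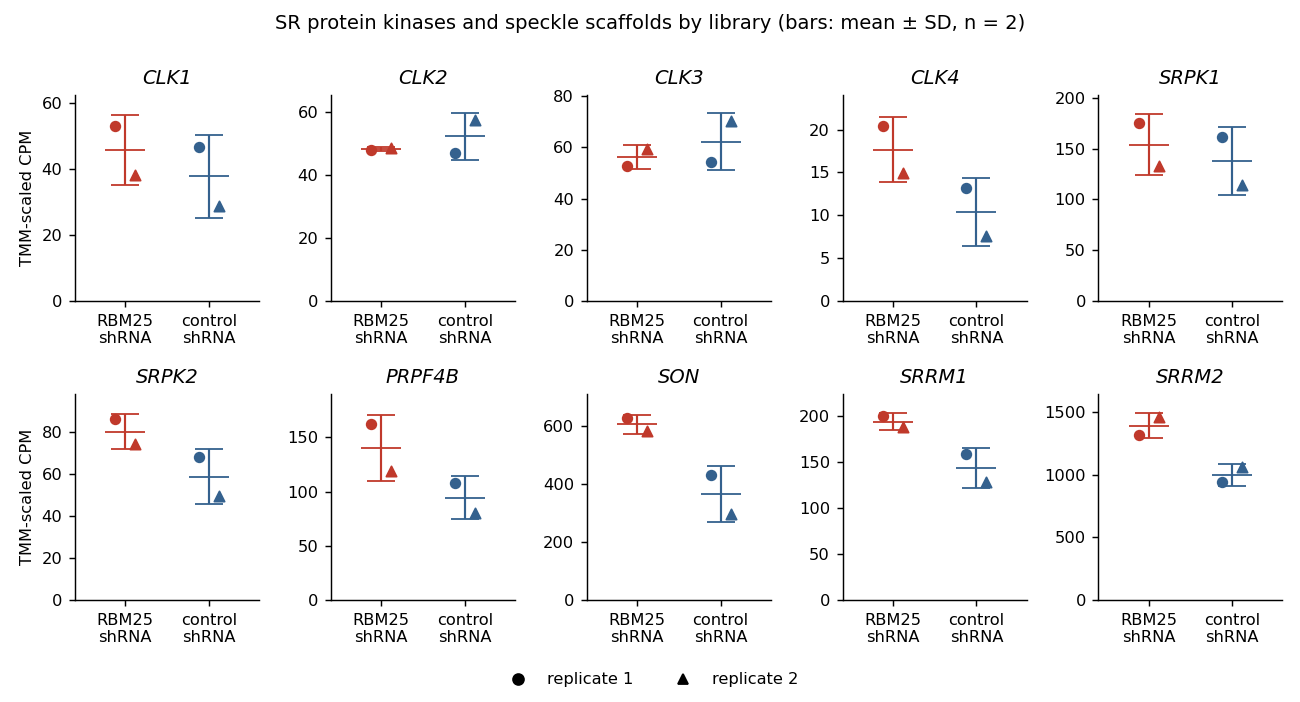
TMM-scaled CPM of the 10 genes in each library, RBM25 shRNA on the left and control shRNA on the right of each panel, with the mean and SD of 2 libraries as bars. SON stood at 628.1 and 582.6 CPM in RBM25 shRNA and at 432.0 and 296.4 CPM in control shRNA, while the groups of CLK1, CLK2, CLK3 and SRPK1 overlapped.

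Replicates of the same group differed along GC content, the share of G and C bases in a gene's longest transcript, and this touched the 10 genes. The log2 difference of replicate 2 from replicate 1 had a Spearman correlation with GC content of 0.85 over the 10 genes in RBM25 sh and of 0.70 in Control sh. Over 13180 genes it was 0.77 in RBM25 sh and 0.79 in Control sh, as a description of libraries that the genes share. CLK1 and CLK4, with 35.7% and 36.2% GC, were lower in replicate 2 of both groups, and CLK2 and SRRM2, with 52.3% and 56.2% GC, were higher there. For that reason the 10 genes are also described after each library's smooth trend on GC content was removed. The log2 fold change between the groups also went with GC content, with a Spearman correlation of -0.26 over the 13180 genes and -0.22 over the 10. Because the trend was fitted to each library, the correction removes this trend between the groups too, and the source of that trend was not tested.

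**Figure D2:**
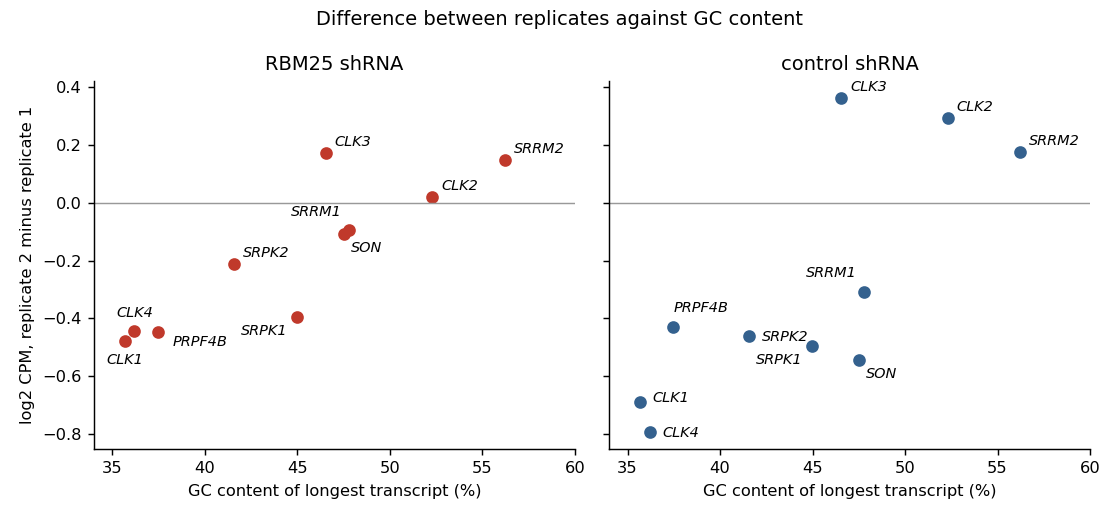
Log2 CPM of replicate 2 minus replicate 1 (vertical) against GC content of the longest transcript in percent (horizontal) for the 10 genes, in RBM25 shRNA (left) and control shRNA (right). In both groups CLK1 and CLK4, with 35.7% and 36.2% GC, lie below 0, and SRRM2, with 56.2% GC, lies above 0.

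After the GC correction, SON, SRRM2, SRRM1 and CLK4 passed the edgeR threshold, all higher in RBM25 sh, so that 4 of the 10 genes were called, beside 14.5% of all genes called higher and 14.4% called lower. The same 6 genes were higher without overlap in corrected CPM, beside 33.8% of all genes. The median of the 10 corrected log2 fold changes was 0.37, beside 0.01 over all genes. PRPF4B and SRPK2 fell short of the threshold, with corrected adjusted p-values of 0.059 and 0.052.

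**Figure D3:**
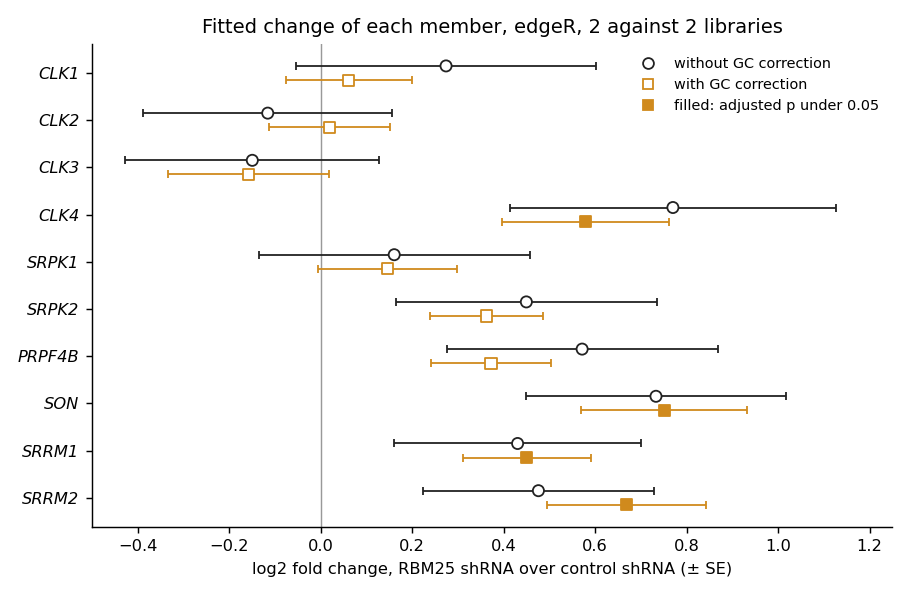
Log2 fold change of RBM25 shRNA over control shRNA with its SE (horizontal) for each gene, without GC correction (circles) and with it (squares), filled where the edgeR adjusted p is under 0.05. No circle is filled, and the filled squares are CLK4, SON, SRRM1 and SRRM2.

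SON, SRRM2 and SRRM1 encode the large serine- and arginine-rich proteins of the speckle. SON binds RNA and keeps weak splice sites in use, and its gene spans chr21:33542618-33577481 on the plus strand (ENSG00000159140). SON stood at 628.1 and 582.6 CPM in RBM25 sh, against 432.0 and 296.4 CPM in Control sh. Both RBM25 sh libraries were above both controls, and the controls lay further from each other than the RBM25 sh libraries did. Its mean was 605 ± 32.2 CPM in RBM25 sh and 364 ± 95.9 CPM in Control sh (SD, n = 2 each), or 1.66-fold higher (log2 fold change 0.73 ± 0.28, edgeR adjusted p = 0.178). That value exceeded those of 90.8% of all genes tested. The GC correction left it at 0.75 ± 0.18 (edgeR adjusted p = 0.0143), with 621.0 and 594.6 corrected CPM in RBM25 sh and 419.9 and 302.1 in Control sh.

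The span of SON, introns included, overlaps that of DONSON by 17940 bases and that of GART by 874 bases on the opposite strand. Of the 100-base windows of SON transcripts, 1.47% were also found in another gene's transcripts on either strand, led by GART and DONSON. No source used here says whether counting used strand, so reads in sequence shared by exons could belong to either gene. DONSON had 632 and 673 counts in RBM25 sh and 530 and 451 in Control sh, and GART had 4471 and 4574 in RBM25 sh and 4412 and 4007 in Control sh. SON had 9374 and 9143 counts in RBM25 sh and 6830 and 5313 in Control sh. Among 6429 well measured genes, those whose centred log2 CPM over the 4 libraries lay nearest to that of SON were DYNC1LI1, a dynein light intermediate chain, AP1G1, an adaptor protein of vesicle transport, and IL17RD, a receptor of the interleukin-17 family. Their Euclidean distances from SON were 0.018, 0.041 and 0.041 on the log2 scale over 4 libraries. DYNC1LI1 stood at 82.7 and 77.0 CPM in RBM25 sh and at 57.8 and 39.1 CPM in Control sh, and it was not called either (edgeR adjusted p = 0.194).

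SRRM2 (ENSG00000167978, chr16:2752329-2772538, plus strand), the other core scaffold and a component of spliceosomes, had the highest FPKM of the 10 genes in both groups. It stood at 1318 and 1460 CPM in RBM25 sh, against 937 and 1060 CPM in Control sh. The groups did not overlap, with replicate 2 the higher one in each. The log2 fold change was 0.48 ± 0.25 (edgeR adjusted p = 0.312), and 0.67 ± 0.17 (edgeR adjusted p = 0.0194) after the GC correction. SRRM2 has the highest GC content of the 10 genes, and the correction moved its value up while it moved those of CLK1, CLK4, SRPK2 and PRPF4B down. SRRM1 (ENSG00000133226, chr1:24631716-24673267, plus strand), a coactivator that joins the exon junction complex to splicing factors, stood at 200.5 and 187.7 CPM in RBM25 sh and at 159.3 and 128.8 CPM in Control sh. Its groups did not overlap either. The log2 fold change was 0.43 ± 0.27 (edgeR adjusted p = 0.396), and 0.45 ± 0.14 (edgeR adjusted p = 0.0376) after the correction.

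SON and SRRM2 had the largest corrected differences among the scaffolds, so the windows around their start sites are shown. These are RefSeq windows on GRCh38.p14 of 300 bases each, at chr21:33542788-33543087 (plus strand) for SON and chr16:2752388-2752687 (plus strand) for SRRM2. Capitals mark the letters TGACG on either strand, the core of the cyclic AMP response element and of ATF sites.
SON: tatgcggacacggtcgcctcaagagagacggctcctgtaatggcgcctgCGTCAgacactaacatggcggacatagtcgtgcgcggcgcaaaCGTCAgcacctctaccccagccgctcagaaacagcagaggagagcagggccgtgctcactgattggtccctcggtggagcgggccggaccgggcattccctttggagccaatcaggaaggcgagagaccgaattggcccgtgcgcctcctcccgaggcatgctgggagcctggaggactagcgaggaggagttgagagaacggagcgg
SRRM2: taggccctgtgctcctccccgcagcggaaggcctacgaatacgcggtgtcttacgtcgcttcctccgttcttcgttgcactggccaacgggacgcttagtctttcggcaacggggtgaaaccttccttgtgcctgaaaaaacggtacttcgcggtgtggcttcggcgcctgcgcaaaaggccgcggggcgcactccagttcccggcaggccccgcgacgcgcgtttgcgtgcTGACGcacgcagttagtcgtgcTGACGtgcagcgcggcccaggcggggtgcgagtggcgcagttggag
Both windows held 2 matches. RefSeq windows were found for 9 of the 10 genes, all but PRPF4B, and some genes had several, up to 4 for SRPK2. A gene was counted if any of its windows held the letters. So counted, 7 of the 9 held TGACG or its complement CGTCA, beside 28.4% of 27305 genes with a window. SRPK2 held it only in its window 4 and CLK3 only in its window 2. The shares were not matched for the number of windows per gene, for the GC content of the windows or for expression in these cells. Other letters searched on both strands gave GGGCGG in 7 of 9 (48.3% of all genes), CCAAT in 3 (39.7%), CACGTG in 2 (8.77%) and GAANNTTC, a core of heat shock elements, in 0 (8.21%). These letters were chosen after the values of the genes were known, and a match describes the letters of the window, not binding.

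Of the kinases that act first, SRPK2 had groups that did not overlap and SRPK1 had groups that did. SRPK2 (ENSG00000135250, chr7:105110704-105399308, minus strand) stood at 86.4 and 74.5 CPM in RBM25 sh, against 68.2 and 49.6 CPM in Control sh. A log2 fold change of 0.45 ± 0.29 did not pass the edgeR threshold (adjusted p = 0.404, or 0.36 ± 0.12 with an edgeR adjusted p of 0.052 after the GC correction), and it was 0.24 without Control sh replicate 2. SRPK1 (ENSG00000096063, chr6:35832966-35921342, minus strand), the paralog with the higher FPKM, stood at 174.9 and 132.9 CPM in RBM25 sh and at 161.1 and 114.3 CPM in Control sh. Here replicate 1 of Control sh lay above replicate 2 of RBM25 sh, so the groups overlapped. Its log2 fold change was 0.16 ± 0.30 (edgeR adjusted p = 0.797), and 0.15 ± 0.15 after the correction. The difference between the fold changes of SRPK2 and SRPK1 was not tested. PRPF4B (ENSG00000112739, chr6:4021267-4064983, plus strand), a kinase of the spliceosome that phosphorylates proteins of the tri-snRNP, stood at 161.7 and 118.6 CPM in RBM25 sh and at 108.3 and 80.4 CPM in Control sh. Its groups did not overlap, with the lower RBM25 sh library close above the higher Control sh library. The log2 fold change was 0.57 ± 0.30 (edgeR adjusted p = 0.303), and 0.37 ± 0.13 after the correction, and it was 0.37 without Control sh replicate 2 and 0.35 without RBM25 sh replicate 1.

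Of the nuclear kinases, CLK4 differed most between the groups. CLK4 (ENSG00000113240, chr5:178602664-178630615, minus strand), a paralog of CLK1 with the lowest FPKM of the 10 genes, stood at 20.4 and 14.97 CPM in RBM25 sh, against 13.2 and 7.59 CPM in Control sh. The groups did not overlap, but they came within a gap smaller than the spread inside each group. Its counts were 304 and 235 in RBM25 sh and 208 and 136 in Control sh. The log2 fold change was 0.77 ± 0.36 (edgeR adjusted p = 0.250), above those of 91.7% of all genes tested, and 0.58 ± 0.18 (edgeR adjusted p = 0.0406) after the GC correction.

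CLK1 (ENSG00000013441, chr2:200853009-200864744, minus strand), whose transcripts are in part held in the nucleus with retained introns in many cell types, stood at 53.2 and 38.2 CPM in RBM25 sh and at 46.7 and 28.96 CPM in Control sh. The groups overlapped. Its log2 fold change of 0.27 ± 0.33 became 0.06 ± 0.14 after the GC correction (edgeR adjusted p = 0.772). The counts are per gene, so retained-intron and spliced forms of CLK1 and CLK4 were not analysed here. CLK2 (ENSG00000176444, chr1:155262868-155278491, minus strand), like its paralogs a nuclear kinase of SR proteins, stood at 47.9 and 48.6 CPM in RBM25 sh, against 46.99 and 57.6 CPM in Control sh, and CLK3 (ENSG00000179335, chr15:74598500-74645414, plus strand) at 52.7 and 59.4 CPM in RBM25 sh, against 54.4 and 70.0 CPM in Control sh. Both had overlapping groups. The log2 fold change was -0.12 ± 0.27 for CLK2 and -0.15 ± 0.28 for CLK3. The value of CLK2 changed sign to 0.02 ± 0.13 with the GC correction, and that of CLK3 was then -0.16 ± 0.18. The span of CLK3, introns included, overlaps that of EDC3 by 14857 bases on the opposite strand, so its counts are uncertain in the way described for SON. The same holds for SRRM2, whose span overlaps ELOB by 1125 bases, for SRPK2, with KMT2E by 3658, and for CLK2, with HCN3 by 909. KMT2E had 1922 and 1632 counts in RBM25 sh and 1388 and 1151 in Control sh. SRPK2 had 1289 and 1170 counts in RBM25 sh and 1079 and 889 in Control sh. In RBM25 sh EDC3 had 573 and 690 counts, ELOB 1038 and 1332, and HCN3 135 and 150. In Control sh EDC3 had 577 and 752, ELOB 951 and 2177, and HCN3 135 and 241. The share of 100-base windows also found in another gene's transcripts was 4.52% for CLK3, 1.01% for SRRM2, 0.569% for SRPK2 and 0.592% for CLK2.

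Levels per length (FPKM, counts scaled to gene length and library size) were used to order the genes. In RBM25 sh SRRM2 had the highest mean level at 103.16 FPKM, then SON at 45.4, SRRM1 at 23.5, SRPK1 at 22.8, PRPF4B at 17.7, CLK2 at 13.0, SRPK2 at 12.5, CLK1 at 8.76, CLK3 at 2.70 and CLK4 at 2.21 FPKM. In Control sh SRRM2 was first at 72.3 FPKM, then SON at 26.6, SRPK1 at 19.8, SRRM1 at 16.9, CLK2 at 13.7, PRPF4B at 11.5, SRPK2 at 8.93, CLK1 at 7.03, CLK3 at 2.92 and CLK4 at 1.26 FPKM. SRRM1, SRPK1 and PRPF4B overlapped as neighbours in RBM25 sh, as did CLK2 and SRPK2. In Control sh SON overlapped SRPK1, SRPK1 overlapped SRRM1, CLK2 overlapped PRPF4B, PRPF4B overlapped SRPK2, and SRPK2 overlapped CLK1. The listed length of CLK3 is 20443 bases, which lowers its FPKM relative to its counts.

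As a share of the summed FPKM of the 4 CLK genes, CLK4 made up 9.02% and 7.43% in RBM25 sh, against 6.35% and 3.73% in Control sh. The groups did not overlap, with means of 8.22% ± 1.13 and 5.04% ± 1.85 (SD, n = 2 each). CLK2 held the highest share in every library, 48.9% ± 4.43 in RBM25 sh and 55.0% ± 8.59 in Control sh. CLK1 held 32.6% ± 4.98 in RBM25 sh and 28.2% ± 8.98 in Control sh, and CLK3 10.2% ± 1.68 in RBM25 sh and 11.8% ± 2.24 in Control sh. The ranges of CLK1, CLK2 and CLK3 overlapped between the groups. With the GC correction the mean shares in RBM25 sh and Control sh were 30.2% and 30.05% for CLK1, 51.7% and 52.8% for CLK2, 10.4% and 11.9% for CLK3, and 7.67% and 5.32% for CLK4. The difference between the groups was then 0.20 percentage points for CLK1, against 4.42 without the correction, and -1.05 for CLK2, against -6.09, while that of CLK4 was 2.35, against 3.19. With 2 libraries against 2 the smallest two-sided p of an exact permutation test is 0.33, so no share was tested.

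Ratios of counts within a library do not depend on its scaling, and 6 pairs of genes were chosen for this after their values were seen, of which 3 are given in full. The ratio of CLK4 to CLK1, which have nearly the same GC content, was 0.383 and 0.392 in RBM25 sh, against 0.282 and 0.262 in Control sh. The replicates lay close to each other in both groups, and the log2 difference between the groups was 0.51, with 0.46 to 0.56 when any 1 library was left out and 0.52 with the GC correction. The ratio of SRPK2 to SRPK1 was 0.494 and 0.561 in RBM25 sh, against 0.424 and 0.434 in Control sh, a log2 difference of 0.30 that was 0.22 with the correction. The ratio of SON to SRRM1 was 3.13 and 3.10 in RBM25 sh, against 2.71 and 2.30 in Control sh, a log2 difference of 0.32 (0.31 with the correction, and 0.20 without Control sh replicate 2). These 3 ratios had groups that did not overlap, as did that of SON to SRPK1 (log2 difference 0.59). In 2 other pairs the groups overlapped: CLK1 to CLK2, with a log2 difference of 0.40 that was 0.04 with the correction, and SRRM2 to SON, with -0.28 that was -0.10 with the correction. No ratio was tested, and as pairs picked after their values were seen they describe these libraries only.

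**Figure D4:**
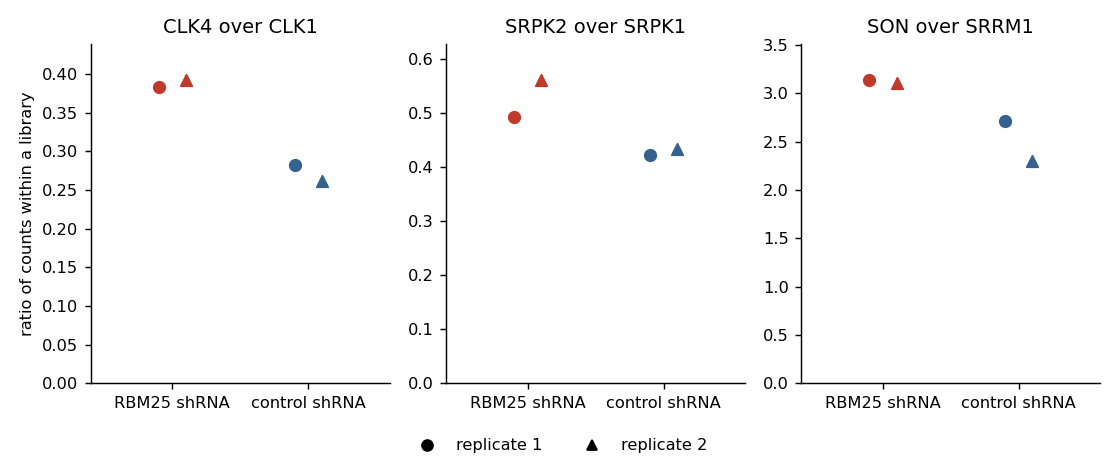
Ratio of counts of 2 genes within each library (vertical, from 0) in RBM25 shRNA (left) and control shRNA (right), replicate 1 as circles and replicate 2 as triangles. CLK4 over CLK1 was 0.383 and 0.392 in RBM25 shRNA and 0.282 and 0.262 in control shRNA.

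The proteins that these kinases and scaffolds work on or with were described from 6 lists. SR proteins are the substrates: of 14 genes 13 were measured, 11 had log2 fold changes above 0 and none was called. Among all 16091 genes tested, 7647 were above 0. The median was 0.33, or 0.18 after the GC correction, with 10 then above 0. The smallest p-values belonged to SRSF5 (0.64 ± 0.28), SRSF1 (0.52 ± 0.31), SRSF11 (0.40 ± 0.29) and SRSF2 (0.38 ± 0.29). SRSF1, the founding SR protein and a target of SRPK1 and CLK1, stood at 78.6 and 65.8 CPM in RBM25 sh and at 61.5 and 39.3 CPM in Control sh. It alone of the 13 was called after the GC correction (0.43 ± 0.13, edgeR adjusted p = 0.0387), beside 14.5% of all genes called higher in that fit.

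Of 20 other kinases and phosphatases that act on SR proteins, all were measured and none was called, with a median log2 fold change of 0.10. After the GC correction 4 of the 20 were called higher and none lower, beside 14.5% and 14.4% of all genes in that fit, so the count is near that of all genes. Among them were GSK3B, a kinase of several splicing factors (0.60 ± 0.13), PPP1CC, a catalytic subunit of protein phosphatase 1 (0.63 ± 0.16), and PPP1R8, the nuclear inhibitor of that phosphatase in speckles (0.54 ± 0.14). PPP1R8 stood at 74.5 and 59.8 CPM in RBM25 sh and at 47.1 and 47.1 CPM in Control sh, so its groups did not overlap. SRPK3, the muscle paralog, had at most 4.02 CPM and is too low to be read here.

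Of 31 other RS-rich and speckle genes, all measured, 24 had log2 fold changes above 0, beside 7647 of all 16091 genes tested. None was called, and the median was 0.35 (0.26 with the GC correction). After the GC correction 9 of the 31 were called higher and 1 lower, beside the same 14.5% and 14.4% of all genes. The genes named here had the smallest p without the correction, and are not those with the largest corrected values. LUC7L, a protein that associates with the U1 snRNP, had a corrected log2 fold change of 0.98 ± 0.15. That of PRPF4, a component of the tri-snRNP, was 0.73 ± 0.13. SAP18, a subunit of the ASAP complex at the exon junction, was not called (0.57 ± 0.21 after the correction, edgeR adjusted p = 0.073). The 1 gene called lower was MALAT1, the long noncoding RNA of speckles, with 129.9 and 92.6 CPM in RBM25 sh, against 208.0 and 222.7 CPM in Control sh. MALAT1 was lower in both RBM25 sh libraries, by -0.95 ± 0.29 on the log2 scale (edgeR adjusted p = 0.101), and by -1.13 ± 0.19 (edgeR adjusted p = 0.00304) after the correction, while the protein scaffolds SON, SRRM1 and SRRM2 were higher.

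Of the 5 core genes of the exon junction complex, which SRRM1 binds, none was called and the median log2 fold change was 0.37 (0.31 with the GC correction). CASC3 stood at 144.4 and 152.1 CPM in RBM25 sh and at 106.7 and 117.4 CPM in Control sh. It was called after the GC correction (0.52 ± 0.12, edgeR adjusted p = 0.013), beside 14.5% of all genes called higher in that fit. EIF4A3, its helicase, had 0.50 ± 0.27, RBM8A 0.37 ± 0.26 and MAGOHB -0.14 ± 0.29, and none of these 3 was called with or without the correction.

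The list with called genes held the chaperones that bind SRPK proteins in the cytoplasm. Of its 5 genes, HSPA8 and AHSA1 were called higher and none lower, beside 0.653% and 2.4% of all genes tested. The median log2 fold change was 1.21. The groups of 1 of the 5 overlapped, with a log2 fold change of 0.26 ± 0.28, and it was not called with the GC correction either. HSPA8, the constitutive cytosolic HSP70, stood at 2918 and 2473 CPM in RBM25 sh, against 548 and 368 CPM in Control sh, which was 5.89-fold higher (edgeR adjusted p = 0.00637; log2 fold change 2.56 ± 0.30). AHSA1, the activator of the HSP90 ATPase, stood at 192.2 and 199.7 CPM in RBM25 sh and at 77.9 and 89.5 CPM in Control sh, which was 2.34-fold higher (edgeR adjusted p = 0.0439; log2 fold change 1.23 ± 0.27). Its adjusted p was 0.371 without RBM25 sh replicate 1 and 0.303 without RBM25 sh replicate 2, 0.0532 with library totals only and 0.0595 by limma on log2(FPKM + 1). With the GC correction the log2 fold change was 2.57 for HSPA8 and 1.34 for AHSA1. The HSP90 genes HSP90AA1 and HSP90AB1 had 1.21 ± 0.33 and 0.99 ± 0.26, not past the threshold without the GC correction (edgeR adjusted p = 0.0793 and 0.0737). Both were past it with the correction, in a fit that called 14.5% of all genes higher. The differences of HSPA8, AHSA1, HSP90AA1 and HSP90AB1 were larger than that of any of the 10 kinase and scaffold genes, by value. The difference between genes was not tested.

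The last list held 6 genes whose pre-mRNA splicing is known to need SON. All 6 had log2 fold changes below 0 (median -0.37), beside 8444 of all 16091 genes tested, and none was called. Each has a GC content of at least 55.6%, and log2 fold changes went with GC content, as described above. The part of GC content in these 6 values was not tested. SON itself was higher in RBM25 sh, but was not called without the GC correction. HDAC6, a cytoplasmic deacetylase, stood at 39.8 and 50.9 CPM in RBM25 sh, against 59.9 and 92.4 CPM in Control sh. Its groups did not overlap, where 27.9% of all genes tested were lower without overlap. HDAC6 was called lower after the GC correction (-0.54 ± 0.13, edgeR adjusted p = 0.0165). In that fit 2 of the 6 were called lower and 0 higher, beside 14.4% and 14.5% of all genes. AURKB, a mitotic kinase, had a log2 fold change of -0.50 ± 0.27, and TUBG1, gamma-tubulin, of -0.24 ± 0.30, which was -0.0047 after the correction. With the correction 2 of the 6 were above 0. The values are totals per gene and do not show how these pre-mRNAs were spliced.

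**Figure D5:**
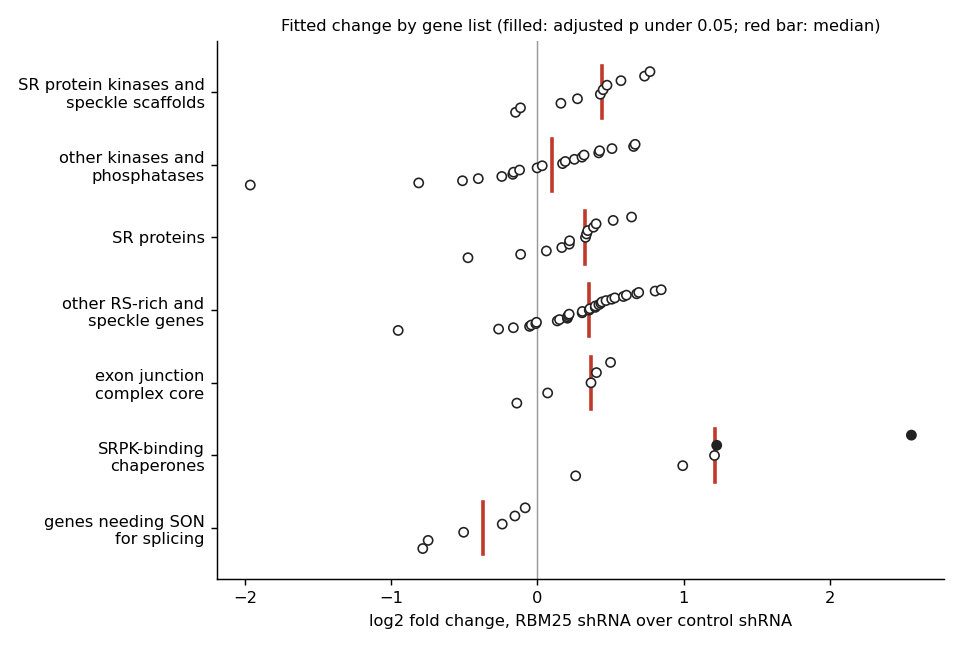
Log2 fold change of RBM25 shRNA over control shRNA (horizontal) for each measured gene of the 10 kinases and scaffolds and of 6 related lists (vertical), without GC correction. Filled points have an edgeR adjusted p under 0.05 (HSPA8 and AHSA1), and red bars are medians, 0.44 for the kinases and scaffolds and -0.37 for the genes needing SON.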

How the data were processed

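RNA-seq of 4 HCT116 libraries was used, grouped by the labels. The authors deposited counts per gene, and FPKM per gene that equal these counts divided by the listed length and by 1 factor per library. TopHat2 2.0.9, Cuffdiff 2.1.1, Bowtie2 2.0.6 and Cufflinks 2.1.1 are listed in the submitters' processing notes, in no stated role. The counting tool, its strand setting and the build are not stated in any source used here. Positions of all 58735 gene IDs equal those of GENCODE on GRCh38.

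Counts were tested with edgeR 4.0.16 in R 4.3.3: default filterByExpr (16091 genes), TMM, a two-sided quasi-likelihood F test, with the group alone as a term, and Benjamini-Hochberg adjustment over all genes tested (threshold 0.05). SE values are the log2 fold change over the root of F. The GC correction entered each library's lowess trend (span 0.3) of log2 CPM on GC content as an offset. FPKM were used for levels, shares and limma 3.58.1 on log2(FPKM + pseudocount), and DESeq2 1.42.0 was an alternative. Overlap means that the ranges of the 2 libraries per group meet. Replicates differed beyond counting noise (chi-square per degree of freedom 24.6 in RBM25 sh and 62.5 in Control sh), so none was a duplicate.

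The genes and lists were chosen with earlier results of these data known. Named were the 10 genes, RBM25, MKNK2 (the gene of the series title), up to 4 genes per list with the smallest p, and the 3 genes nearest to the gene with the smallest p among those with an average log2 CPM of at least 5. Of the listed genes, 1 is not reported here. MKNK2 stood at 159.1 and 251.8 CPM in RBM25 sh and at 244.6 and 425.3 CPM in Control sh (edgeR adjusted p = 0.283, 0.0328 with the GC correction and 0.0119 without Control sh replicate 1). In simulated data for this comparison (15996 genes, 2 against 2 libraries, biological coefficient of variation 0.15), edgeR recovered 70 of 100 genes changed 2-fold and called 6 unchanged genes. With a GC trend between replicates (16002 genes) it recovered 18 of 100, and 85 of 100 with the GC correction. That trend was linear in the same GC content that the correction uses and equal in both groups. These values therefore cannot show how well the correction works on the real libraries.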

Additional observations from a re-analysis of the deposited data

How the results depend on the processing

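The 491 genes called became 1438 with no filter, 1085 by the DESeq2 Wald test, 4652 with the GC correction, 204 and 124 by limma on log2(FPKM + 1) and log2(FPKM + 0.1), and 0 by limma on log2(FPKM + 1) with no filter, where 3676 genes had an unadjusted p under 0.05. Without 1 library they ranged from 204 to 2389. Of genes called, 21.4% were higher, against 50.04% with the GC correction. Labels do not say that a replicate number marks a shared batch, and with 2 pairs same-numbered libraries deviated together (correlation 0.67). With a replicate block 5722 genes were called, and 6440 with the block and the GC correction. Of the 10 kinase and scaffold genes 0 were called, and 4 with the GC correction, 5 with the replicate block (CLK4, SRPK2, PRPF4B, SON and SRRM1, beside 16.4% of all genes called higher), 6 with both (SRRM2 in addition, beside 20.6%), and 0 to 2 without 1 library. The cause of these shifts was not tested. Without 1 library the median of the 10 ranged from 0.26 to 0.63. The log2 fold change of CLK2 turned to 0.0197 with the GC correction and 0.0189 with the block added. Without 1 library the values ranged over both signs for CLK1 (-0.032 to 0.67), CLK2 (-0.25 to 0.037), CLK3 (-0.31 to 0.043), SRPK1 (-0.067 to 0.44) and TUBG1 (-0.48 to 0.063). For SON the range was 0.49 to 1.04, for CLK4 0.42 to 1.23, for SRPK2 0.24 to 0.71 and for PRPF4B 0.35 to 0.81. RBM25 and AHSA1 were not called by limma on log2(FPKM + 0.1) (adjusted p = 0.0657 and 0.0766) or on log2(FPKM + 1) with no filter (0.349 for both), and with the replicate block MKNK2 was called (edgeR adjusted p = 0.00148). SRPK3, with few counts, was called lower with no filter (edgeR adjusted p = 0.0185) and with the replicate block (edgeR adjusted p = 0.00522). The CLK3 share moved by -1.52 percentage points in FPKM and by -4.63 in counts. The share of CLK1 differed by -1.93 to 10.8 percentage points without 1 library. The common biological coefficient of variation was 0.252, above the 0.15 of the simulated data. How often 2-fold or other differences would be detected at that spread was not simulated. Fits without 1 library take their spread from the group that keeps 2. The GC correction was not combined with leaving out a library.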
